A study of Mus musculus with 2 samples.

Results

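Mir106b, Mir93 and Mir25 are 3 microRNA (miRNA) genes in a row within an intron of Mcm7, a gene for a subunit of the replicative DNA helicase. They were chosen by gene name, as the miRNA genes called Mir106b, Mir93 or Mir25 in the GENCODE M21 annotation, with their read counts in these libraries already known. They are 3 of 2202 miRNA genes counted, and 3 of the 377 genes that had at least 10 reads in both libraries and are called detected below. The study sequenced small RNA of adrenal glands taken from female B6CASTF1/J mice at an age of 4 days. This strain is the hybrid of C57BL/6J and CAST/EiJ mice. It held 2 libraries of 1 group, biological replicates 1 and 2, with no treatment, no other genotype and no control group. The labels name separate females but carry the same donor identifier for both, so that separate animals were taken from the description alone. With 1 library per animal and no second group, every statement below is a description and no test was made.

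The cluster is a paralog of the miR-17/92 cluster and is produced from the host gene's own transcript. Transcription of Mcm7 is known to follow E2F factors at the entry into S phase, which links these miRNAs to dividing cells. A miRNA pairs with messenger RNAs mainly through its seed, bases 2 to 8 of the mature strand, so that miRNAs with the same seed share many targets. In human tumour cells, miR-106b and miR-93 are known to repress the cell cycle inhibitor CDKN1A, and miR-25 the proapoptotic factor BCL2L11. In mice the cluster is known to act on the proliferation of neural stem cells. The neonatal adrenal gland is a growing organ with dividing cortical cells.

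The mature sequences show how the members divide into seed families. They are printed 5′ to 3′ from RefSeq (GRCm38.p6), with the seed in capitals. For each of the 3 members the arm known as its main product is given. Close relatives in the paralogous clusters on chromosome 14 (miR-17 and miR-92a) and X (miR-106a) follow.
miR-106b-5p: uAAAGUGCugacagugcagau
miR-93-5p: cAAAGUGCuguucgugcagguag
miR-25-3p: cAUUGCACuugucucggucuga
miR-17-5p: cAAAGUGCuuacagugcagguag
miR-106a-5p: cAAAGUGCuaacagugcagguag
miR-92a-3p: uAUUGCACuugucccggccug
The seed AAAGUGC was shared by miR-106b-5p and miR-93-5p with miR-17-5p and miR-106a-5p, whereas miR-25-3p held AUUGCAC together with miR-92a-3p. Aligned at the 5′ end without gaps, miR-106b-5p had the same base as miR-93-5p at 16 of 21 positions and the same base as miR-17-5p at 18 of 21. It matched miR-20a-5p of chromosome 14, which is not printed, at 18 of 21 as well. The sequence of miR-25-3p matched that of miR-92a-3p at 18 of 21 positions, but that of miR-106b-5p at 5 of 21. The members therefore differed from each other at more positions than from their paralogs elsewhere in the genome.

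The opposite arms carry other seeds and are shown because the deposited counts do not tell the arms of a hairpin apart.
miR-106b-3p: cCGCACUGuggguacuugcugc
miR-93-3p: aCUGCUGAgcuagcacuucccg
miR-25-5p: aGGCGGAGacuugggcaauugc
The counts given below for Mir106b, Mir93 and Mir25 each cover both arms. Reads that map to several places were counted for no gene, which leaves miRNAs with identical copies undercounted. The 3 members are not of that kind. The longest run of bases that a member's hairpin shared with any other counted hairpin was 14 for Mir106b, 13 for Mir93 and 14 for Mir25, and none shared a run of 18. No read of the opposite strand was counted for any member in either library, and counts on either strand were identical to those on the annotated strand.

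The hairpins lie on the minus strand of chromosome 5 (mm10, GRCm38), where Mcm7 spans 138164583 to 138172422. Along the transcript Mir106b comes first (138165737 to 138165818), then Mir93 (138165523 to 138165610), then Mir25 (138165321 to 138165404). The 3 hairpins span 498 bases, with 126 bases between Mir106b and Mir93 and 118 bases between Mir93 and Mir25. All of them lie in intron 13 of the 15-exon transcript Mcm7-201, an intron of 748 bases, and in intron 8 of Mcm7-208. They differ in 1 annotated respect. Mir93 and Mir25 also lie within the first exon of Mcm7-202, a transcript annotated as a retained intron, whereas Mir106b lies outside it. Their hairpins are 82 (Mir106b), 88 (Mir93) and 84 (Mir25) bases long with a GC content of 57.3%, 55.7% and 63.1% in the same order. The minimum free energy predicted by RNAfold was lowest for Mir93, at -46.3 kcal/mol, against -41.0 kcal/mol for Mir106b and -35.9 kcal/mol for Mir25.

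Together the members were a small part of the miRNA pool in both libraries, and a smaller one in replicate 2. On the annotated strand, 4960537 reads fell in miRNA genes in replicate 1, and 4506482 did so in replicate 2, which is 42.4% and 39.9% of all reads of those libraries. The members had 21520 of these reads in replicate 1 and 13270 in replicate 2. As a share of miRNA reads replicate 1 gave 0.434% (95% Wilson interval 0.428 to 0.440). Replicate 2 gave 0.294% (0.290 to 0.300). The intervals did not overlap. They cover counting error only, since reads copied by PCR without molecular identifiers are not independent molecules.

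Mir93 was the most abundant member in both libraries and the one that hardly differed between them. It had 10831 reads in replicate 1 and 10841 in replicate 2. As counts per 1000000 miRNA reads (CPM), this was 2183 CPM in replicate 1 and 2406 CPM in replicate 2, a mean of 2295 CPM ± 157 (SD, n = 2). Among the 377 detected genes it ranked 56th in replicate 1 and 55th in replicate 2.

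Mir106b, which shares its seed with Mir93, was close to Mir93 in replicate 1 and far below it in replicate 2. It had 7968 reads in replicate 1 and 1546 in replicate 2, or 1606 and 343 CPM. The mean was 975 CPM ± 893 (SD, n = 2), so the spread was nearly as large as the mean. Its rank was 69th in replicate 1 and 134th in replicate 2.

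Mir25, the member with the other seed, was the least abundant in both libraries. It had 2721 reads in replicate 1 and 883 in replicate 2, or 549 and 196 CPM (mean 372 CPM ± 249, SD, n = 2). It ranked 120th in replicate 1 and 161st in replicate 2. The order Mir93, Mir106b, Mir25 thus held in both libraries. Over the pair of libraries, the ranges of Mir106b and Mir25 overlapped, since Mir106b in replicate 2 was below Mir25 in replicate 1, whereas the values of Mir93 lay above all values of the other members.

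**Figure D1:**
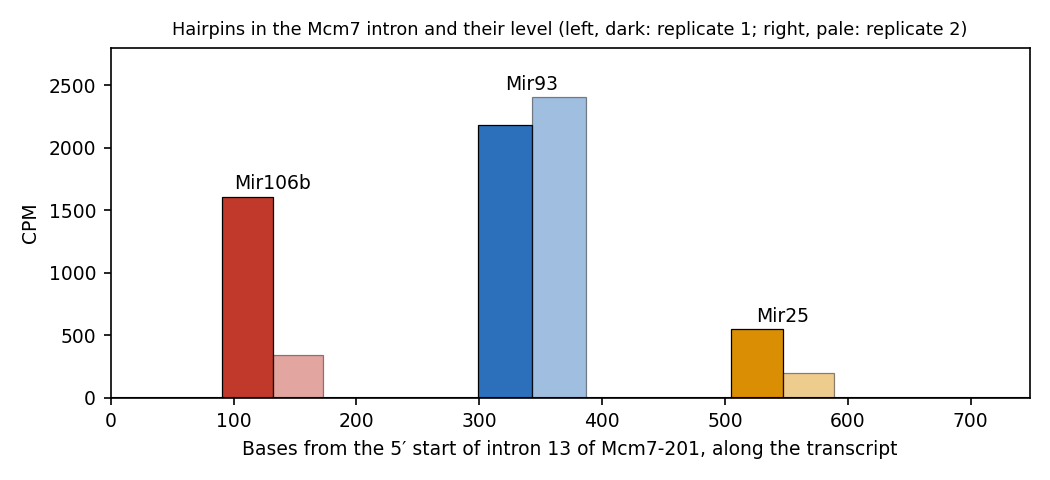
Level of Mir106b, Mir93 and Mir25 (CPM, y axis) drawn at the place of each hairpin in intron 13 of Mcm7-201 (x axis, bases from the 5′ start of the intron). Each hairpin is drawn as a pair of bars, replicate 1 dark on the left and replicate 2 pale on the right. Mir93 in the middle is level (2183 and 2406 CPM), whereas Mir106b (1606 and 343 CPM) and Mir25 (549 and 196 CPM) are lower in replicate 2.

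The composition of the cluster can be read within each library and needs no scaling between them. Of the members' reads Mir93 took 50.3% in replicate 1, with a Wilson interval of 49.7 to 51.0, whereas in replicate 2 it took 81.7% (81.0 to 82.3). Mir106b took 37.0% in replicate 1 (36.4 to 37.7) and 11.7% in replicate 2 (11.1 to 12.2). Mir25 took 12.6% in replicate 1 (12.2 to 13.1) and 6.65% in replicate 2 (6.24 to 7.09). For none of the members did the intervals of the libraries overlap, so the composition differed by more than the counting error they allow for. The means over both libraries were 66.0% ± 22.2 for Mir93, 24.3% ± 17.9 for Mir106b and 9.65% ± 4.24 for Mir25 (SD, n = 2 for each).

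**Figure D2:**
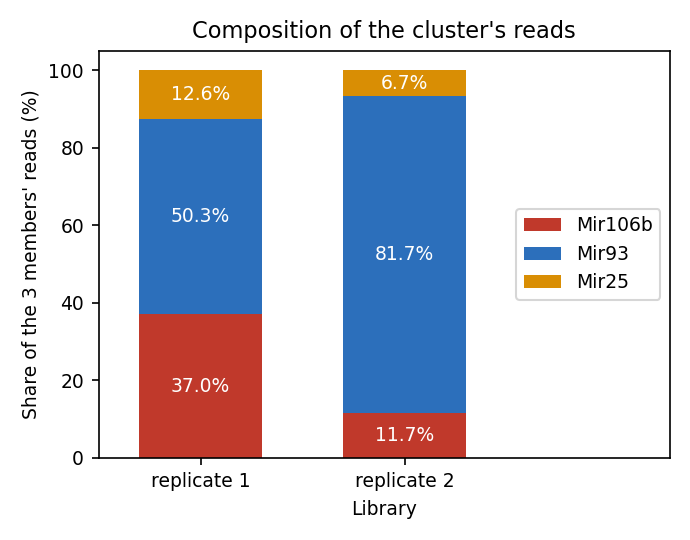
Share of the 21520 reads in replicate 1 and the 13270 reads in replicate 2 (y axis, percent; x axis, library) taken by Mir106b, Mir93 and Mir25. Mir93 fills 50.3% of the bar of replicate 1 and 81.7% of that of replicate 2.

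In pairs, the change was greatest between the miRNAs of the same seed. For each read of Mir93 there were 0.736 reads of Mir106b in replicate 1 (95% exact interval 0.715 to 0.757) and 0.143 in replicate 2 (0.135 to 0.150), a 5.16-fold change of the ratio. Mir25 had 0.251 reads per read of Mir93 in replicate 1 (0.241 to 0.262) and 0.0815 in replicate 2 (0.0760 to 0.0872), a 3.08-fold change. Mir106b and Mir25 kept closer to each other, with 2.93 reads of Mir106b per read of Mir25 in replicate 1 (2.80 to 3.06) and 1.75 in replicate 2 (1.61 to 1.90), a 1.67-fold change. The outer hairpins of the row were therefore both lower against the middle one in replicate 2, and to different degrees.

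Between libraries, levels were compared as the log2 ratio of replicate 2 over replicate 1 after TMM scaling, a method that sets library sizes from the bulk of the genes. Mir106b had a log2 ratio of -2.18 (95% exact interval for counting error -2.26 to -2.10), 4.52-fold lower in replicate 2. Mir25 had -1.43 (-1.55 to -1.32), 2.70-fold lower in replicate 2. Mir93 had 0.19 (0.15 to 0.23), 1.14-fold higher in replicate 2. Their sum had -0.51 (-0.54 to -0.48). The total thus hides that Mir106b and Mir25 were lower in replicate 2 while Mir93 hardly differed.

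Of the 3 members, 2 had a ratio of 1.5-fold or more, against 37.9% of the 377 detected genes, and both were lower in replicate 2, as were 24.4% of the detected genes at that fold. Ratios of this size were thus common between these libraries. The median log2 ratio of all detected genes was -0.04 and their SD was 0.97. Ordered from the lowest log2 ratio, Mir106b stood 15th and Mir25 27th of 377, and Mir93 stood 249th. These places describe this pair of libraries, since no further library of the tissue was there to compare with.

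**Figure D3:**
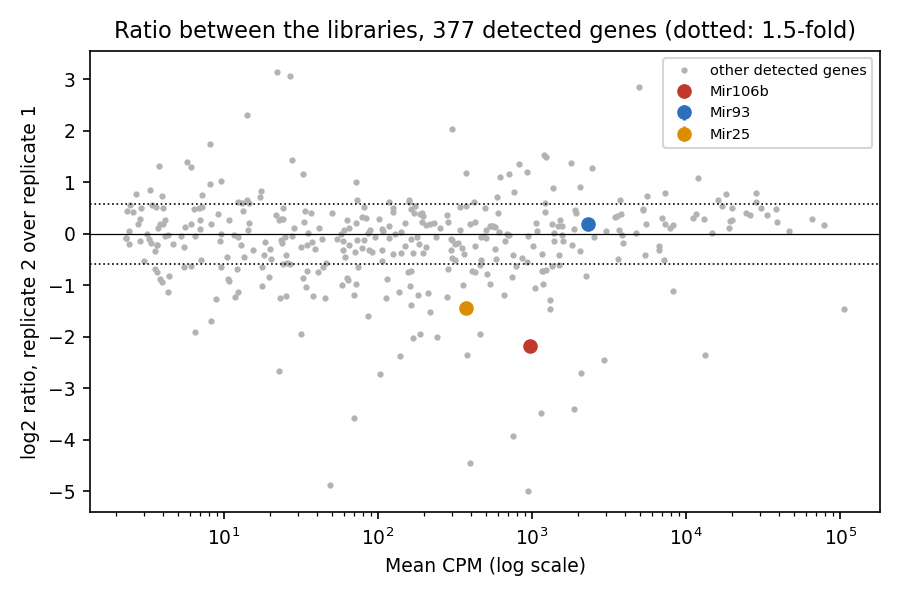
Log2 ratio of replicate 2 over replicate 1 (y axis, TMM-scaled reads) against mean CPM (x axis, log scale) for the 377 detected genes, with the members in colour and bars for the 95% exact interval of counting error, which are mostly hidden by the points. Dotted lines mark 1.5-fold. Mir106b (-2.18) and Mir25 (-1.43) lie below the lower line and Mir93 (0.19) lies between the lines.

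Hairpins that lie close together on a strand often come from 1 primary transcript, so the spread of library ratios within such clusters was compared. With gaps of at most 10 kb between neighbours, the detected genes formed 48 clusters of at least 2 hairpins. In the Mcm7 cluster the highest and lowest log2 ratio lay 2.37 apart. The median of the other 47 was 0.78. Of these, 2 clusters were wider, both of the imprinted Dlk1-Dio3 region and much longer, with 13 and 34 detected hairpins (2.53 and 2.51; chosen after their values were seen). Among the 46 clusters of up to 10 hairpins, the Mcm7 cluster was the widest. Most of the others were pairs, and 2 values tend to span less than 3. Of the 9 clusters of 3 hairpins, the other 8 ran from 0.54 to 2.00, with a median of 1.09. Some of these hold hairpins that share runs with others and are undercounted, so their spans are uncertain. Without such hairpins, 5 clusters of 3 remained with the Mcm7 cluster among them, and none was wider than it. Measured by the SD of the ratios, 1.21 in the Mcm7 cluster, 2 pairs of hairpins were more spread (1.54 for Mir497 with Mir195a and 1.49 for Mir199a-2 with Mir214, chosen after their values were seen). The least abundant member of the Mcm7 cluster, Mir25, had 3604 reads in both libraries together, so counting error moved its ratio little.

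**Figure D4:**
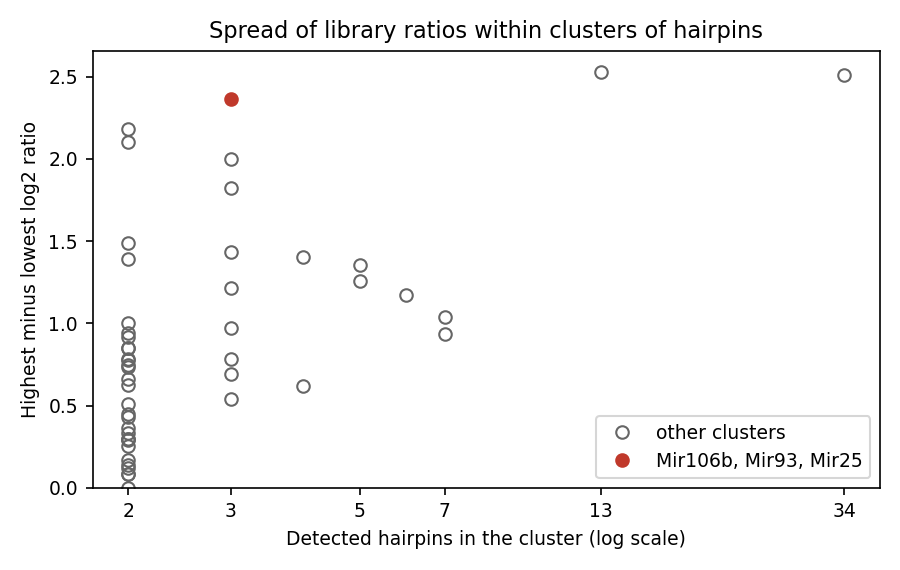
Distance between the highest and the lowest log2 ratio (y axis) within each of 48 clusters of detected hairpins, against the number of detected hairpins (x axis, log scale). The filled point is the cluster of Mir106b, Mir93 and Mir25 at 2.37, and the open points are the other clusters, of which 2 lie higher, at 13 and 34 hairpins.

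In level, the members lay nearer to each other than the hairpins of most clusters of this size. The mean CPM of Mir93 was 6.16 times that of Mir25. In the other 8 clusters of 3 hairpins the median of this fold was 32.0, and 2 of them had a smaller fold. Over all 48 clusters, 14 had a smaller one. Some of those clusters hold hairpins whose mature copies are undercounted, so their folds are uncertain.

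The paralogous clusters gave the comparison with related miRNAs from other transcripts. Some share the members' seeds, whereas Mir18, Mir18b, Mir19a, Mir19b-1 and Mir19b-2 carry neither seed. The miR-17/92 cluster lies on chromosome 14, with 6 genes of which 6 were detected. The other cluster lies on the X chromosome, with 6 genes of which 5 were detected. Of all reads of these 15 genes, the Mcm7 cluster took 34.4% in replicate 1 and 29.9% in replicate 2 (mean 32.2% ± 3.18, SD, n = 2). The chromosome 14 cluster took 63.1% and 67.8% in the same order (mean 65.5% ± 3.29), and the X cluster 2.45% and 2.29% (mean 2.37% ± 0.109; SD, n = 2 for both). Reads that fit several places are missing for Mir92-1, Mir92-2, Mir19b-1 and Mir19b-2, but not for the 3 members. The share of the Mcm7 cluster is therefore an upper value, and that of the paralogous clusters together a lower value. As counted, the division between the 3 loci was thus far closer between the libraries than the division among Mir106b, Mir93 and Mir25.

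Within the chromosome 14 cluster Mir17, the relative of Mir106b and Mir93, was the most abundant gene of all 15. There were 19330 reads in replicate 1 and 16792 in replicate 2, or 3897 and 3726 CPM. Its log2 ratio was -0.01 (95% exact interval -0.04 to 0.02, given likewise in brackets for the genes that follow) and ranged from -0.06 to 0.07 over the 6 scalings and count columns tried, so it has no firm direction. Mir20a, which holds the same seed, reached 1481 and 1302 CPM in replicates 1 and 2 (log2 ratio -0.13, -0.18 to -0.09). Mir92-1, the relative of Mir25, had 1544 and 920 CPM in replicates 1 and 2 (log2 ratio -0.70, -0.75 to -0.64). Its mature strand miR-92a-3p is identical to that of Mir92-2, so both counts miss reads that fit either place. Mir18 was at 1020.5 and 709.6 CPM in the same order (log2 ratio -0.47, -0.54 to -0.41). Mir19a and Mir19b-1 had 37 reads or fewer in each library. For Mir19b-1, and for Mir19b-2 on the X chromosome, reads that fit several places are missing too. Their low counts therefore do not give the level of miR-19b.

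In the X cluster, Mir106a differs from Mir106b in 3 of the 21 positions compared and was far lower, at 77.4 CPM in replicate 1 and 68.3 CPM in replicate 2. Its log2 ratio was -0.13, with an interval from -0.35 to 0.09 that holds 0. Mir20b was level too, at 60.1 and 60.8 CPM in replicates 1 and 2. Mir363, which holds the seed of Mir25, stood at 98.2 CPM in replicate 1 against 41.5 CPM in replicate 2, and its log2 ratio of -1.19 (-1.44 to -0.94) was the lowest among the detected genes of the 2 paralogous clusters. Mir92-2 had 66.7 and 52.1 CPM. Mir18b and Mir19b-2 had 25 reads or fewer in each library. At the fold of 1.5, 2 of the 6 detected genes on chromosome 14 (Mir19a and Mir92-1) and 2 of the 5 on the X chromosome (Mir18b and Mir363) were lower in replicate 2, and none was higher, beside 24.4% of the 377 detected genes lower at that fold. For Mir19a and Mir18b the intervals hold 0.

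**Figure D5:**
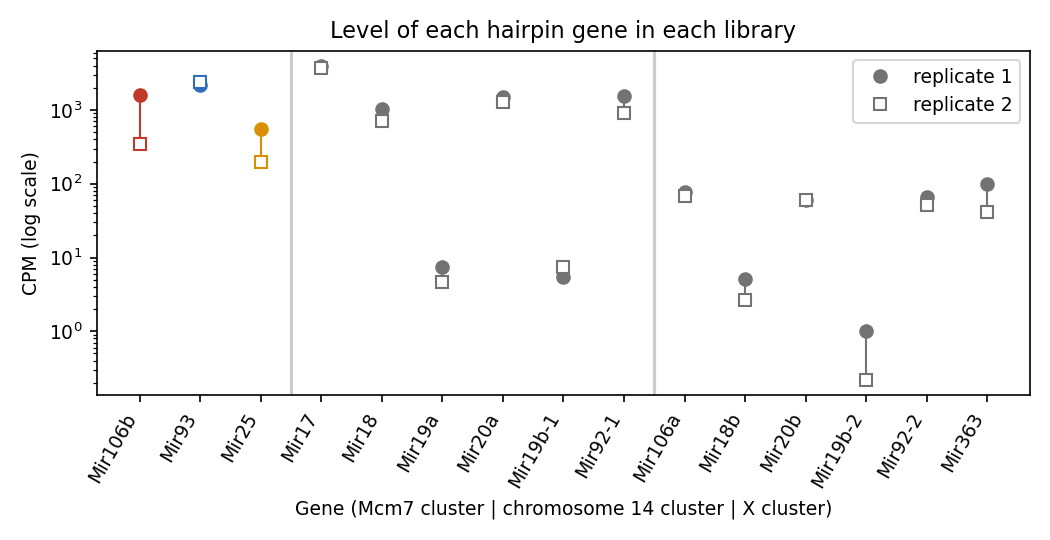
CPM (y axis, log scale) of Mir106b, Mir93 and Mir25, of the 6 genes of the chromosome 14 cluster and of the 6 genes of the X cluster (x axis, in the order of each transcript). Filled circles stand for replicate 1 and open squares for replicate 2, joined by a line per gene. The lines are long for Mir106b, Mir25 and Mir363 and short for Mir93, Mir17 and Mir20b. Mir19b-2, with 5 reads in replicate 1 and 1 in replicate 2, is too low to be read.

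Summed by seed, the libraries differed less than at Mir106b alone. In the RefSeq table, 7 genes have a mature arm with the seed AAAGUGC, of which 6 were detected and Mir6383 had 0 reads in both libraries, below the limit of 0.605 CPM in replicate 1 and 0.666 CPM in replicate 2 that 3 reads set. Together they reached 9305 and 7906 CPM in replicates 1 and 2. Mir93 made up 23.5% of their reads in replicate 1 and 30.4% in replicate 2, second to Mir17 with 41.9% and 47.1%. Mir106b made up 17.3% in replicate 1 and 4.34% in replicate 2. It ranked above Mir20a in replicate 1 (7968 against 7348 reads) and below it in replicate 2 (1546 against 5868 reads).

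The seed AUUGCAC of miR-25-3p was carried by 7 genes, of which 6 were detected and Mir367, known from pluripotent cells, had 0 reads in both libraries. These genes summed to 2416 and 1354 CPM in replicates 1 and 2. Mir25 made up 22.7% of their reads in replicate 1 and 14.5% in replicate 2, behind Mir92-1 with 63.9% and 68.0%. Of the lesser members, Mir32 had 435 reads in replicate 1 and 384 in replicate 2, with a log2 ratio of 0.01 that lay between -0.04 and 0.09 over the scalings tried. Mir92b had 351 and 264 reads. With the mature strand of Mir92-1 and Mir92-2 undercounted, the share of Mir25 is an upper value. These sums count whole hairpins, so they hold both arms and not the seed-bearing strand alone.

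The genes whose levels were most like those of each member were found as the nearest by Euclidean distance in log2(CPM + 1) over the 2 libraries. For Mir93 they were Mir298 (distance 0.262; 2619 and 2411 CPM in replicates 1 and 2) and Mir361 (distance 0.384; 1707 and 2174 CPM). For Mir25 they were Mir666 (distance 0.320; 480.2 and 234 CPM) and Mir451a, an erythroid miRNA (distance 0.436; 738 and 184 CPM). For Mir106b the nearest genes lay farther off. They were Mir148a (distance 0.827; 919 and 391 CPM) and Mir425 (distance 0.954; 958 and 519 CPM). None of these nearest genes belongs to the paralogous clusters.

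Markers of other cell types differed between the libraries too, and in part moved with Mir106b and Mir25. The 5 epithelial miRNAs of the miR-200 family, 5 of 5 detected, summed to 4224 CPM in replicate 1 against 192 CPM in replicate 2. Outside that family, Mir203 and Mir205, also known from epithelia, were split (chosen after their values were seen). Mir203 had 2210 reads in replicate 1 and 4356 in replicate 2, whereas Mir205 had 196 and 27. The erythroid pair Mir144 and Mir451a, both detected, summed to 1039 and 259 CPM in the same order, and endothelial Mir126a had 156832 and 54709 CPM. Against this, the striated muscle list (3 of 5 detected, Mir208a at 0 reads in replicate 1) was higher in replicate 2, at 1249 and 8686 CPM, with Mir206 alone giving 99.2% and 99.3% of its reads. The 4 leukocyte miRNAs, all detected, summed to 1256 and 1554 CPM, and the neuroendocrine pair of Mir375 and Mir7b, both detected, to 39741 and 45238 CPM in replicates 1 and 2. The leukocyte list was split. In replicates 1 and 2, Mir155 had 517 and 354 reads, whereas Mir142 had 2622 and 3061 and Mir223 had 2073 and 2566. Mir150 had 1016 and 1022 reads. The miR-200 family and the erythroid and endothelial lists were thus higher in replicate 1, as Mir106b and Mir25 were. Mir93 and the neuroendocrine pair were nearly level. The part of these differences in the values of Mir106b and Mir25 was not tested. In bulk tissue, fewer cells of a type and less RNA per cell cannot be told apart. Mir375 and Mir7b are known from neuroendocrine cells, the class to which the chromaffin cells of the adrenal medulla belong, whereas the lists held no miRNA that defines the adrenal cortex.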

How the data were processed

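MicroRNA reads were counted in 2 adrenal libraries of 1 group. The authors deposited whole-number read counts per miRNA gene, 1 table per library and not normalized. Per the file headers deposited beside them, the assembly was mm10 and the annotation GENCODE M21. Which aligner and counting tool made them is not given in the sources used here. The tables have no header line, and their values show that the 3 count columns hold reads of both strands together, of the annotated strand (used here) and of the opposite strand. The leading rows, which name no gene (57.6% of reads in replicate 1 and 60.1% in replicate 2, among them 25.9% and 27.8% mapped to several places), stayed out of library sizes.

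CPM was computed over reads of miRNA genes, and TMM factors with edgeR 4.0.16 over the 377 genes with at least 10 reads in both libraries. They were 1.02 for replicate 1 and 0.982 for replicate 2. Intervals are 95% Wilson for shares and exact for ratios (SciPy 1.17.1 and R 4.3.3) and cover counting error only. The ratio step was tested on counts simulated with counting error alone. This checks its arithmetic and not how well the intervals suit these libraries. Hairpins sharing a run of 18 bases with a hairpin elsewhere (96 of 377) were marked, and free energies came from ViennaRNA 2.7.2. All 6 mature arms of the members were found in RefSeq's table, and 3 of 3 hairpins were identical in GENCODE. Named were the members, the 12 genes of the paralogous clusters, the genes of both seed families and the 2 nearest genes per member. The members, lists and markers were chosen with earlier results of these data known. Neither edgeR's quasi-likelihood test nor any other was run, because 1 group holds no contrast.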

Additional observations from a re-analysis of the deposited data

How the results depend on the processing

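Of 61 values recomputed under alternatives that keep both libraries, 46 counted as unmoved and 15 as moved. The measure was the spread or error of the main value, where it had one. Shares of the members could not move with reads on either strand, because those counts are identical. None of the log2 ratios of the 3 members and their sum changed sign under the scalings and count columns tried for ratios. Those of Mir17 and Mir32 did over the same settings. The total without Mir126a, used below for levels, was not tried for ratios. It was larger in replicate 2 (4259940 reads) than in replicate 1 (4182570), whereas Mir93 had 10841 and 10831 reads. Divided by that total, Mir93 would be slightly lower in replicate 2, so the direction of its small difference is not firm. The level of every member followed the total it was divided by, and over every read Mir106b averaged 409 CPM and Mir25 155 CPM. Among these levels, those of Mir93 and the sum moved by more than their spread. The level of Mir106b counted as unmoved beside a spread of 893 CPM between the libraries, so this does not show it to be stable. Mir93 averaged 2726 CPM with reads on either strand, 3395 CPM without hairpins that share runs, 943 CPM over every read and 2567 CPM without Mir126a in the total. The 3 members summed to 5335 CPM without hairpins that share runs and 1507 CPM over every read. Another scaling shifts all log2 ratios by the same amount. The log2 ratio of Mir93 was 0.14 by total reads and 0.27 by TMM with no filter on low counts, and that of Mir106b was -2.10 with no filter. The sum of the members had -0.56 by total reads, -0.47 by DESeq2 1.42.0 size factors and -0.43 by TMM with no filter on low counts. With gaps of at most 3 kb, 1 cluster was wider than that of Mir106b in place of 2. Without hairpins that share runs, 8 of 28 clusters had a smaller fold between members, against 14 of 48, because fewer clusters remained. The members' share of the paralogous genes was then 36.4% against 32.2%. It could only rise, because the genes left out all belong to the paralogous clusters. Leaving them out does not restore the reads those genes miss, so the share over all the genes stays an upper value. The number of members past 1.5-fold stayed 2 under each scaling and at the lower and the higher fold tried. Leaving out a replicate gives the value of the other library, which says nothing of stability, and a ratio between libraries has none. No paired analysis was possible because the series has 1 group. With 883 reads or more per member, depth did not limit these values; the number of libraries did.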
